A study of Mus musculus with 118 samples.

Results

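Within layer 4 (L4) of primary somatosensory cortex (S1), cells with at least 1 read of Hpse, the gene of heparanase, were compared with cells without one. The cells were chosen by these values: from the 39 cells labelled S1 L4, those with at least 1500 detected genes, at least 1 Sst count and no more Slc17a7 counts than Gad1 plus Gad2 counts were kept. This left 34 cells, 28.8% of all cells of the series, of which 23 were Hpse-positive and 11 Hpse-negative. Of the others, 1 fell under the gene limit, 4 had no Sst count and 0 failed on Slc17a7. All cells came from adult SOM-Cre/Ai9 mice, in which Cre under the somatostatin gene switches on a red fluorescent reporter, and were untreated. Each labelled neuron was recorded with a patch pipette, and its cytosol was then aspirated and turned into full-length cDNA for sequencing (Patch-seq). The reporter marks every cell that has ever expressed Cre, so a few labelled cells can lack somatostatin, and the aspirated cytosol can carry RNA of neighbouring cells. No ages or animals are given in the labels, and 22 Hpse-positive and 20 Hpse-negative L4 cells of primary visual cortex (V1), with 10 positive and 23 negative layer 5 (L5) cells of both areas, served for comparison under the same limits.

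Somatostatin interneurons are inhibitory neurons of the cortex that mostly contact the dendrites of other neurons. They include Martinotti cells, whose axons climb to layer 1, and cells of L4 in S1 whose axons stay mainly within that layer and contact its fast-spiking interneurons. Hpse is one of the genes by which cell atlases of the cortex name a type of somatostatin neuron, together with Cbln4, while Calb2 and Pdlim5 name another. Heparanase cuts heparan sulfate, the sugar chain on syndecans, glypicans and agrin at the cell surface and in the matrix, and these chains bind growth factors and synaptic adhesion proteins.

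The depths of the classes overlapped. Total counts ranged from 499521 to 3295232 (median 1379700) in Hpse-positive cells and from 501293 to 2968674 (median 1065500) in Hpse-negative cells, with a median of 6480 and 7335 detected genes. The titles of the cells carry 9 dates, which were taken here as recording days. By these dates the days were grouped here into 2 series, days 1 to 6 and 7 to 9. The titles do not say what the dates mark and name no series. The classes were not spread evenly over the days. Day 2 gave 4 Hpse-negative S1 L4 cells and no positive one, days 4 and 6 gave only positive cells, and 5 days gave both. For the 4 cells of day 2, day and Hpse class cannot be told apart. Because the labels name no animal, all cells of an area and layer count as 1 sample and no p-value was computed. Each difference below is one between the mean log2(CPM + 1) of the classes, positive minus negative, where CPM is the count divided by the total count of the cell and scaled to a fixed sum. Intervals on shares of cells (Clopper-Pearson, 95%) and on summed counts (exact Poisson, 95%) cover counting error only.

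Hpse was read in 67.6% of the kept S1 L4 cells (23 of 34, interval 49.5 to 82.6%). The share was 52.4% in V1 L4 (22 of 42, 36.4 to 68.0%), 37.5% in S1 L5 (6 of 16) and 23.5% in V1 L5 (4 of 17), so that S1 L4 had the highest share, with an interval that overlapped that of V1 L4. In the positive S1 L4 cells Hpse ranged from 4.05 to 1216.7 CPM with a median of 499 CPM. Just inside the limit lay a cell with 3 counts (4.05 CPM) and a cell with 30 counts (16.4 CPM), and the next value was 175.3 CPM. All 11 negative cells had 0 counts, which at their depths allows up to 1.01 to 5.98 CPM per cell (3 counts). This limit takes reads as independent, which they are not, and does not cover transcripts missed in a cell. In the reads of S1 L4 the split was close to all or none. Being read in a part of the cells only was not particular to Hpse. Among the 23 positive cells, Surf4 was read in 10 and Gfm1 in 8. The 4 cells left out for lack of Sst also had 0 Hpse counts. Hpse lies on the minus strand of chromosome 5 (100679484 to 100719716, GRCm38, GENCODE M21), and no other counted gene overlaps it.

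**Figure D1:**
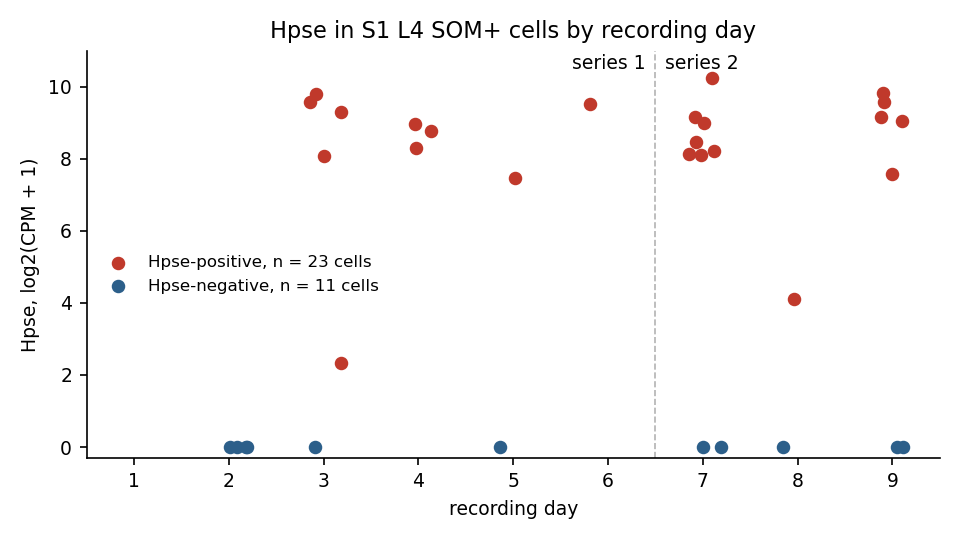
Hpse in log2(CPM + 1) against recording day for the 34 S1 L4 cells, 1 point per cell, red for Hpse-positive (n = 23) and blue for Hpse-negative (n = 11). Apart from 2 positive cells at 4.05 and 16.4 CPM, positive cells sit at 175.3 CPM or above, while day 2 holds 4 negative cells only.

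The choice of cells used Sst and the sum of Gad1 and Gad2, so their levels only describe the kept cells. Sst had a median of 989 CPM (88.3 to 2382.3) in positive and 1035.8 CPM (42.6 to 2248.2) in negative cells, and Gad1, which makes GABA, 1759.7 and 1663.6 CPM. Lhx6, the transcription factor of interneurons born in the medial ganglionic eminence, was read in 20 of 23 and 9 of 11 cells. The 12 identity genes that took no part in the choice summed to a median of 4772.4 CPM (3294.1 to 11493.2) and 4966.9 CPM (2343.1 to 7409.5), with Nkx2-1 at 0 in both classes. Of the 11 that passed the filter on low counts (at least 32 counts in at least 5 cells), 9 had a difference above 0, as had 53.2% of all genes.

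A gene was called where its difference was at least 2 on the log2 scale and had the same sign in both recording series. Of 9003 genes that passed the filter, 286 were called higher (3.18%) and 223 lower (2.48%) in Hpse-positive cells, and the median difference over all genes was 0.08. The largest difference in either direction was that of Calb1. The counts rested on single days: without day 2 there were 398 higher and 380 lower, without day 3 500 higher, without day 7 546 higher and without day 8 407 lower. Without day 2, 325 of the 509 called genes (63.9%) were called again. Fitting recording day as a term gave 365 higher and 350 lower genes and shared 330 with the 509. The split of the calls also moved, from 56.2% higher to 72.8% without day 7 and to 69.3% without day 3, and it turned to 35.8% without day 8 and 47.2% without day 5. It was 66.8% with each cell thinned to 250000 reads and 46.2% with a pseudocount of 10. Of 33 called genes in the gene lists described below, all 33 kept their sign with day as a term and 18 still differed by 2 or more, so for the genes named that value is given where it falls under 2.

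**Figure D2:**
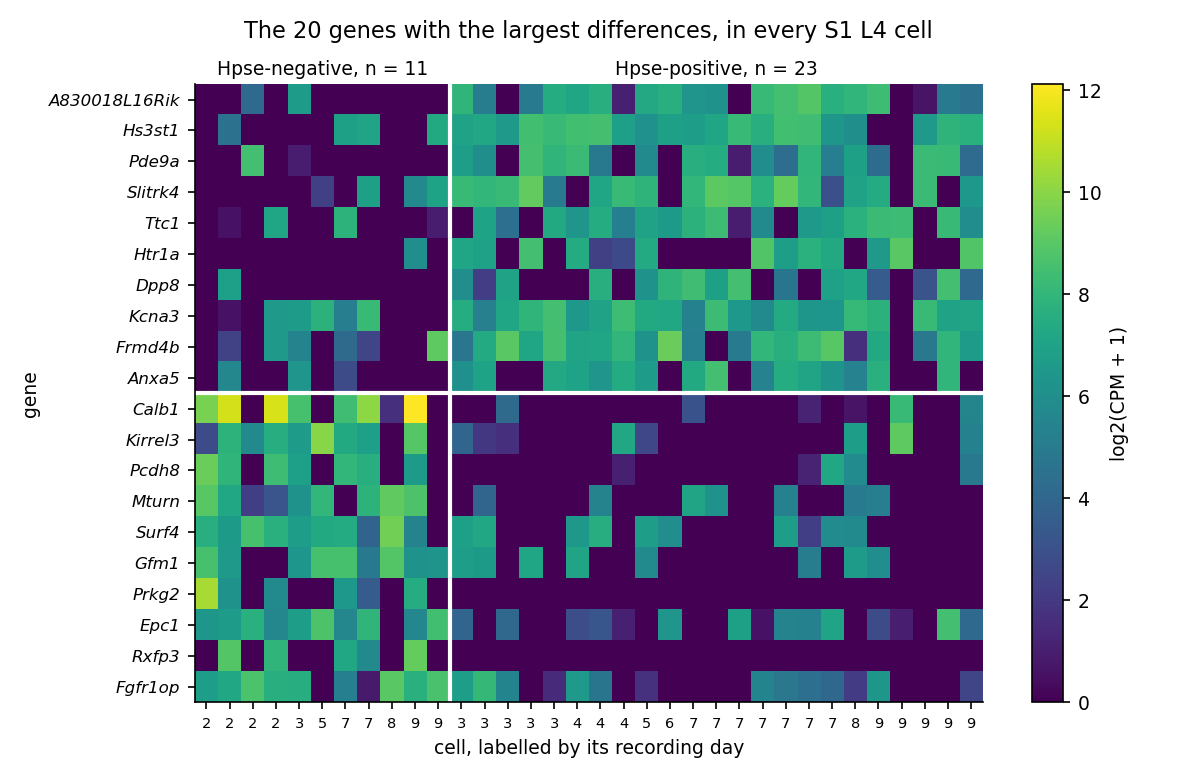
Log2(CPM + 1) of the 10 genes called higher (top) and the 10 called lower (bottom) with the largest differences, in rows, for each S1 L4 cell, in columns labelled by recording day, with the 11 Hpse-negative cells at left and the 23 Hpse-positive cells at right. Prkg2 and Rxfp3 are dark in all 23 positive cells, and Calb1 reaches its highest values in negative cells of days 2 and 9.

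Calb1 encodes calbindin, a cytosolic calcium buffer of many interneurons and other neurons, and lies on chromosome 4 (15881264 to 15908064). It was read in 6 of 23 Hpse-positive cells, at 0 to 283 CPM with a median of 0, and in 8 of 11 Hpse-negative cells, at 0 to 4449.2 CPM with a median of 385 CPM. The difference was −5.68, with −6.42 and −5.03 in the recording series and −5.23 with day as a term. Of the 5 days with both classes, Calb1 was lower in positive cells on 4 and higher on 0. Summed over cells, it made up 12.1 CPM (11 to 13.4) in positive and 1771.0 CPM (1749.0 to 1793.1) in negative cells. A single positive cell of day 9 held 67.7% of the positive counts, and without it the summed level was 4.04 CPM (3.38 to 4.78).

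Of the 10 genes with the largest differences downwards, a pair was read in Hpse-negative cells alone. So were some genes outside these 10, such as Col18a1. Prkg2, a cGMP-dependent protein kinase (chromosome 5, 98929773 to 99037351), was read in 6 of 11 negative cells at 10.6 to 1473.2 CPM and had 0 counts in all 23 positive cells (interval 0 to 14.8% of cells). Rxfp3, the receptor of the peptide relaxin-3 (chromosome 15, 11033717 to 11037991), was read in 5 of 11 negative cells at 52.8 to 614 CPM and again in 0 of 23. Set against a floor of 3 counts over the positive class, the summed levels in these cells were 1760.1-fold and 2442.2-fold lower. These ratios treat reads as independent and leave out the spread between cells. They are therefore not lower limits for the class, as the interval allows up to 14.8% of positive cells with a read. A single negative cell of day 2 held 67.3% of the Prkg2 counts, and without it the ratio was 619.2-fold. Without the cell of day 9 that held 41.2% of the Rxfp3 counts, the ratio of Rxfp3 was 1679.4-fold. The differences with day as a term were −2.72 and −3.47. Of the 5 days with both classes, each gene was lower in positive cells on 2 and higher on 0. Some of the negative cells with reads were of day 2, which had no positive cell. The other 5 and 6 negative cells had no read either, so the classes overlap at 0.

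Cell by cell, the Hpse-negative class was mixed. These genes and limits were picked after their values were seen. Calb1 at 100 CPM or more was found in 7 of 11 negative and 1 of 23 positive cells, and 6 of those 7 also had reads of Prkg2, against 0 positive cells. All 3 of Calb1, Prkg2 and Rxfp3 were found together in 5 negative cells, of days 2, 7 and 9. The other 4 negative cells had at most 2.22 CPM of Calb1 and no read of Prkg2 or Rxfp3. In V1, the combination of Calb1 and Prkg2 occurred in 11 of 20 Hpse-negative and 6 of 22 Hpse-positive cells, so that V1 cells with Hpse were not free of it.

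The other 7 genes with the largest differences downwards were more broadly read in negative cells. Kirrel3, an adhesion protein of synapses, had a median of 112.9 CPM (0 to 995.4, 9 of 11 cells) in negative and 0 CPM (0 to 549.1, 8 of 23 cells) in positive cells, a difference of −4.12. Pcdh8, a protocadherin, differed by −4.09, with a read in 7 of 11 and 5 of 23 cells. Mturn, a protein tied to neural differentiation, differed by −3.94 and was lower in positive cells on all 5 days with both classes. Surf4 (−3.78), a cargo receptor of the early secretory pathway, Gfm1 (−3.68), a mitochondrial elongation factor, Epc1 (−3.58), a subunit of a histone acetyltransferase complex, and Fgfr1op (−3.49), a centrosome protein, were each read in 9 or 10 of 11 negative cells. The classes overlapped for all of these genes. Libraries were unstranded, so reads of Surf4 and Surf2, of Gfm1 and Lxn, of Epc1 and Mir1893 and of Anxa5 and Mir7009, which overlap in the annotation, cannot be told apart. The same holds, among genes described further on, for Lrrtm2 and Ctnna1, Srrm4 and Srrm4os, Ptprt and Ptprtos, Klhl14 and 4930426D05Rik, Kcnab1 and A730090N16Rik, Scn2b and Gm10684, Chrm2 and 9330158H04Rik or Mir490, and Epha4 and Mir6352.

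Among genes higher in Hpse-positive cells, Hs3st1 belongs to the pathway of heparanase itself. It encodes a sulfotransferase that adds the 3-O-sulfate to heparan sulfate, and lies on chromosome 5 (39613935 to 39755475). It was read in 21 of 23 positive cells, at 0 to 369.3 CPM with a median of 142.2 CPM, and in 4 of 11 negative cells, at 0 to 166.1 CPM with a median of 0. The difference was 4.40, with 6.66 and 1.98 in the recording series, 2.96 with day as a term, and it was above 0 on all 5 days with both classes. Summed over cells, Hs3st1 made up 161.1 CPM (156.8 to 165.4) and 31.7 CPM (28.8 to 34.8), and the latter was 20.7 CPM (18.3 to 23.3) without the negative cell of day 9 with the most counts.

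The remaining 9 included genes of signalling and excitability. Pde9a, a phosphodiesterase that breaks down cGMP, was read in 19 of 23 positive cells (median 59.5 CPM) and in 2 of 11 negative cells, a difference of 4.35. Htr1a, an inhibitory serotonin receptor, was read in 14 of 23 and 1 of 11 cells at up to 518 and 61.3 CPM, a difference of 3.70. Kcna3, a voltage-gated potassium channel of the Kv1 family, was read in 22 of 23 positive cells at a median of 137.3 CPM. In negative cells it was read in 6 of 11 at a median of 0.511 CPM, a difference of 3.65. Of the 5 days with both classes, Kcna3 was higher in positive cells on 3 and lower on 2. Slitrk4, a synaptic adhesion protein, differed by 4.29 and Frmd4b, a scaffold protein, by 3.63. A830018L16Rik (4.61), Ttc1 (3.98), Dpp8 (3.67), an intracellular peptidase, and Anxa5 (3.49), a calcium-dependent phospholipid-binding protein, completed the group. Each was read in a larger share of positive than of negative cells, and each also had positive cells without a read, so that none of the 10 separated the classes.

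The rest of the heparan sulfate pathway showed no common direction. Of 13 core proteins, 4 passed the filter and 0 were called, with Sdc3, a neuronal syndecan, at 1.24, Sdc4 at 1.0, Agrn (agrin) at 0.64 and Gpc1 at 0.04. Sdc3 was read in 16 of 23 positive and 5 of 11 negative cells, but its difference was 0.06 with day as a term. Of 27 genes of chain synthesis and sulfation, 15 passed, with Hs3st1 called higher and Extl1, a glycosyltransferase related to the chain polymerases, called lower at −2.87 (read in 6 of 23 and 7 of 11 cells). With day as a term Extl1 was at −1.95, it was higher on 2 and lower on 3 of the 5 days, and in V1 its sign was opposite (1.53). The median of the list was 0.36. The other sulfotransferases and sulfatases past the filter lay within −0.64 (Ndst1) and 0.85 (Hs6st3). Of 7 lysosomal enzymes of chain breakdown, 6 passed, 0 were called and the median was −0.30, and Hpse2, the homologue of heparanase on the same list, had no read in either class. These counts stand beside the 3.18% and 2.48% of all genes.

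V1 L4 cells, which took no part in choosing the genes, were split by Hpse in the same way. The positive V1 cells included cells with 1 to 5 Hpse counts, at 0.465, 2.91, 3.0, 4.74 and 5.28 CPM. The V1 split was thus less close to all or none than that of S1, which bears on each V1 comparison. Of the 286 genes called higher in S1, 180 (62.9%) were also higher in Hpse-positive V1 cells, against 52.6% of all genes. Of the 223 called lower, 57.8% were lower in V1, against 47.4% of all genes. A difference of at least 2 in the same direction was found in V1 for 15 of the 286 (5.24%) and 10 of the 223 (4.48%), where 1.4% and 1.26% of all genes had one. A difference of that size in the opposite direction was found for 4 (1.4%) and 5 (2.24%). Over all 9003 genes the S1 and V1 differences had a Pearson r of 0.0736, about that between the recording series within S1 (0.0638). Both areas share recording days, and genes are not independent of each other. Most calls therefore did not carry over at this size, and a small set did.

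**Figure D3:**
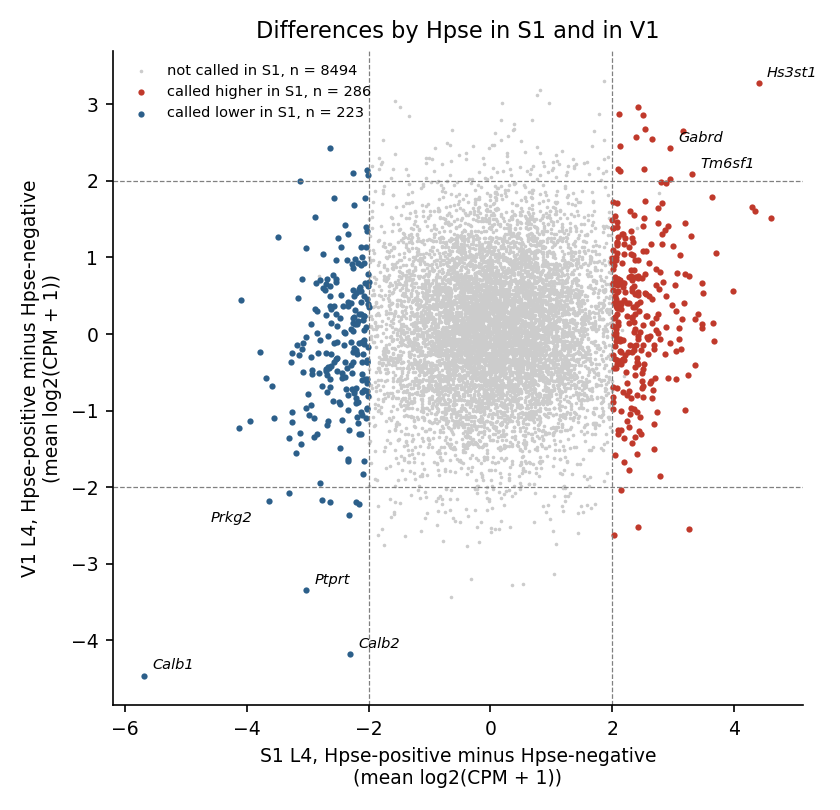
Difference in mean log2(CPM + 1) between Hpse-positive and Hpse-negative cells in S1 L4 (horizontal) and V1 L4 (vertical), 1 point per gene past the filter, with dashed lines at −2 and 2. Red points (n = 286) and blue points (n = 223) were called in S1. Calb1 (−5.68 in S1, −4.46 in V1) and Ptprt (−3.02, −3.34) lie at lower left and Hs3st1 (4.40, 3.28) at upper right. Calb2 lies far out in V1 (−4.18) but near the dashed line in S1 (−2.30).

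Calb1 and Hs3st1 led this set, whose members other than Calb1, Prkg2 and Hs3st1 were singled out after their values were seen. Calb1 differed by −4.46 in V1, with 13 of 22 positive cells (median 124.8 CPM) and 19 of 20 negative cells (median 1352.7 CPM) having a read. In each Hpse class the V1 median lay above the S1 median. Hs3st1 differed by 3.28 in V1, with a read in 13 of 22 (median 91.5 CPM) and 3 of 20 cells, and its mean was higher in positive cells on 4 of 5 days and lower on 0. Tm6sf1, Pcbp3 and Klhl14 were, like Hs3st1, Gabrd, Syt6 and Umps, higher in positive S1 cells on all 5 days with both classes.

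Among synaptic genes of the set, Gabrd encodes the delta subunit of GABA-A receptors that sit outside synapses. It was read in all 23 positive S1 cells (median 248 CPM) and in 8 of 11 negative cells (median 139.1 CPM), a difference of 2.94, and in 13 of 22 and 5 of 20 V1 cells, a difference of 2.43. Grm5, a metabotropic glutamate receptor, differed by −2.64 and −2.20, and within days in S1 it was lower on 3 and higher on 2. The presynaptic genes Cplx2 (2.66 and 2.54) and Syt6 (2.42 and 2.96) were also higher in both areas, Cplx2 on 3 of the 5 days in S1. Reln, a secreted glycoprotein, was read in nearly all cells and had medians of 826 and 196 CPM in S1 and 932 and 355 CPM in V1. Its difference of 2.12 in S1 dropped to 0.66 with day as a term, as that of Pdyn, the gene of the dynorphin peptides, dropped from 2.11 to 0.96. In V1 both were 2 or more with day as a term (2.29 and 3.44). Lower in both areas were Ptprt, a receptor tyrosine phosphatase (−3.02 and −3.34), Cdh4 (−2.77 and −2.17), Lrrtm2, a ligand of neurexins (−2.15 and −2.22), and Srrm4, a splicing factor of neuronal microexons (−3.31 and −2.08). Within days in S1, Cdh4 was lower on 4 and higher on 0, Ptprt lower on 3 and higher on 1, Srrm4 lower on 3 and higher on 2, and Lrrtm2 lower on 2 and higher on 3.

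**Figure D4:**
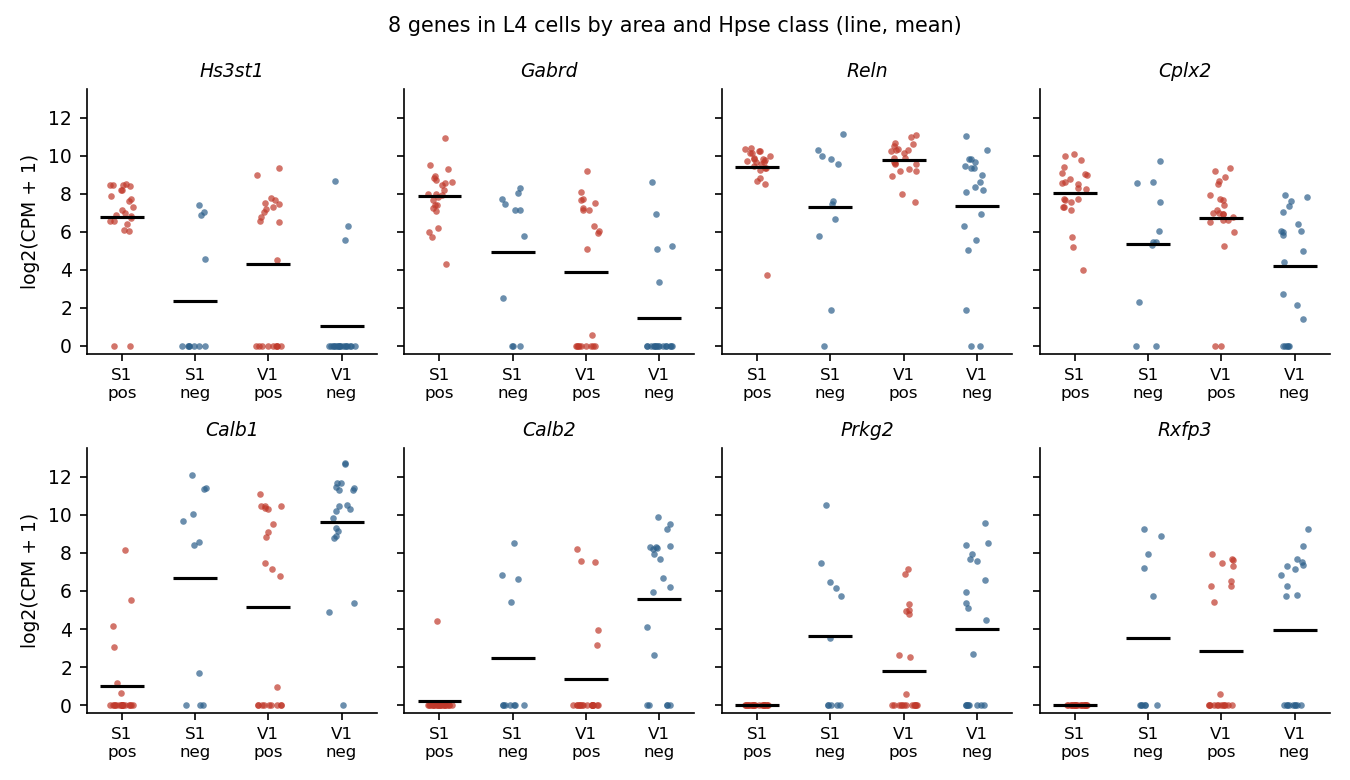
Log2(CPM + 1) of 8 genes in every L4 cell, red for Hpse-positive and blue for Hpse-negative, with the class mean as a line, for S1 (n = 23 and 11) and V1 (n = 22 and 20). Hs3st1, Gabrd, Reln and Cplx2 have higher means in positive cells of both areas and Calb1, Calb2, Prkg2 and Rxfp3 lower ones, with overlap in each panel.

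For the genes with the largest S1 differences, 9 of the 10 called higher and 8 of the 10 called lower had the same sign in V1. The exceptions were Dpp8 (−0.09), Pcdh8 (0.45) and Fgfr1op (1.27). Kcna3, at 3.65 in S1, differed by 0.14 in V1, where it was read in 18 of 22 and 18 of 20 cells. Htr1a differed by 1.06, Pde9a by 1.61 and Rxfp3 by −1.10. The difference between areas was not tested for any gene. In L5 (area as a term, 10 positive and 23 negative cells) the called genes did not stand above the rest. There, 42.7% of the 286 were higher against 42.5% of all genes, and 51.6% of the 223 were lower against 57.5%. Of the 20 genes named, 7 kept their sign in L5, among them Calb1 (−2.07), Htr1a (2.4), Frmd4b (2.48) and Hs3st1 (1.51).

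Of the genes that name types of somatostatin neurons, Calb2, the gene of calretinin, was called lower, at −2.30. It was read in 1 of 23 positive cells (20.4 CPM) and in 4 of 11 negative cells (42.2 to 371 CPM), and in V1 in 5 of 22 and 15 of 20 cells (−4.18). Pdlim5, named with Calb2, was read in 1 cell of each class, at 3.62 and 221 CPM. Cbln4, a secreted synapse organizer named together with Hpse, did not follow Hpse. It was read in 15 of 23 positive cells at a median of 82.2 CPM and in 8 of 11 negative cells at a median of 235 CPM, a difference of −1.46 that was not called. Mme differed by −0.72 (5 of 23 and 3 of 11 cells). Of the 29 genes of this list only Cbln4, Calb2 and Mme passed the filter. Eya1 was read in 5 of 23 and 1 of 11 cells, and Sema3c, Tac1, Tacr3, Chodl and 8 more had no read in either class. Of the remaining 12, none was read in more than 2 cells of a class.

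Of 19 calcium-binding proteins, 13 passed, and Calb1, Calb2 and Pvalb (parvalbumin) were called lower and 0 higher, where 2.48% and 3.18% of all genes were. Of the 13, 6 lay above 0 and the median was −0.38. Pvalb, the marker of fast-spiking basket cells, was read in 9 of 23 positive cells (up to 163.1 CPM, median 0) and in 9 of 11 negative cells (up to 257 CPM, median 41.4). Its difference of −2.74 was −1.46 with day as a term and 0.60 in V1. The 11 basket cell markers together summed to a median of 335 CPM (0 to 1010.1) in positive and 439 CPM (0 to 855) in negative cells, and Syt2, Tac1, Nkx2-1 and Vipr2 were at 0 in both.

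Ion channels and receptors held single calls in both directions, to be read beside the 3.18% of all genes called higher and the 2.48% called lower. Of 20 potassium channel genes of spike shape and rate past the filter (of 27), Kcna3 and Kcnc4, a Kv3 channel, were among those higher and Kcnab1, an auxiliary subunit, among those lower (−2.15, −1.05 with day as a term). Kcnc4 was read in 15 of 23 positive cells at up to 170 CPM, against 1 count in 1 of 11 negative cells, a difference of 3.19 (1.45 in V1). Kcnc1 and Kcnc2, also Kv3 channels, differed by −0.39 and 1.46. Among sodium and calcium channels, 1 of 24 was called, Scn2b, an auxiliary sodium channel subunit, at 2.33, with 1.71 with day as a term and −1.42 in V1. Of 10 leak, HCN and inward rectifier channels 0 were called. Of 8 GABA-A receptor subunits past the filter, Gabrd was higher and Gabrg3 lower (−2.79, read in 1 of 23 and 6 of 11 cells). Of 12 modulator receptors, Htr1a and Chrm2 were higher and Chrm1 lower. Chrm2, a muscarinic receptor coupled to inhibitory G proteins, was read in 12 of 23 cells and in 1 of 11 (3.26), and Chrm1, coupled to Gq, in 11 of 23 and 8 of 11 (−2.02). Chrm1 had the opposite sign in V1 (1.35).

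**Figure D5:**
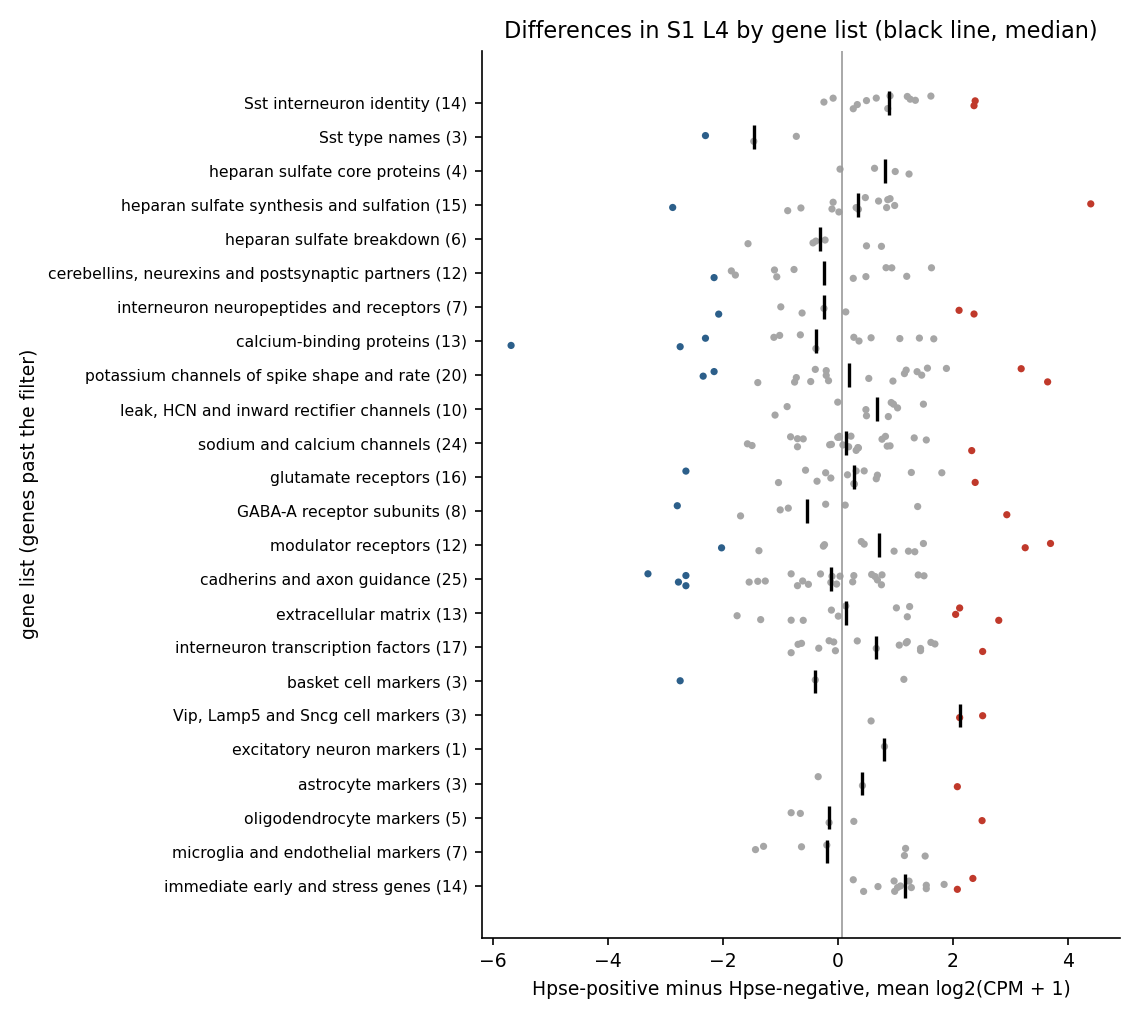
Difference in mean log2(CPM + 1) in S1 L4 for each gene past the filter, by gene list, with red points called higher, blue points called lower and grey points not called. Black lines mark list medians and the grey line the median of all genes (0.08), and the calcium-binding and the cadherin lists hold blue but no red points while the immediate early list lies above 0.

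Of 25 cell adhesion and guidance genes past the filter (of 42), Sema3a, a secreted repellent (−3.30), Cdh4 (−2.77), Cdh18 (−2.64) and Epha4 (−2.64) were called lower and 0 higher, beside 2.48% and 3.18% of all genes. Of the 25, 10 lay above 0 and the median was −0.12. Sema3a was read in 3 of 23 positive and 7 of 11 negative cells. In V1, Sema3a (−1.36) and Cdh18 (−0.59) had the same sign and Epha4 (2.43) the opposite. Of 13 matrix genes past the filter (of 25), Reln, Col11a1 (2.80) and Bcan, brevican of perineuronal nets (2.05), were called higher and 0 lower. The list as a whole had a median of 0.14, with 5 of 13 below 0 and medians of −0.75 and 0.82 in the recording series. Bcan was at 2.87 with day as a term and −0.16 in V1. Col11a1 had medians of 457.9 and 101.6 CPM and differed by 1.99 in V1 and 1.59 with day as a term. Among synapse organizers, 1 of 12 was called (Lrrtm2). Of the neuropeptide genes past the filter (7 of 21), Pdyn and Pnoc, of nociceptin, were higher and Cort, of cortistatin, lower. Pnoc was read in 14 of 23 and 1 of 11 cells (2.37, 1.84 with day as a term, 0.75 in V1). The difference of Cort, −2.07, was −0.37 with day as a term. Of 17 interneuron transcription factors, Npas1 was higher (2.52, 1.73 with day as a term, 1.51 in V1, read in 16 of 23 and 3 of 11 cells).

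Markers of other cells were read in both classes, in some cells at high levels, and their part in the differences was not tested. Summed levels, as lowest, median and highest cell of the positive and then the negative class, were 31.1, 317 and 1073.1 against 4.69, 203 and 743 CPM for 13 excitatory neuron markers, with Slc17a6 and Emx1 at 0 in both. For 10 astrocyte markers they were 0, 376.9 and 1265.2 against 0, 141.1 and 2905.2 CPM, with Gfap at 0 and Aldoc called higher (2.08, 1.75 with day as a term). The 11 oligodendrocyte markers reached 10099.1 and 5913.8 CPM, with medians of 703 and 637 CPM. Among them, Olig1 was read in 9 of 23 positive and 0 of 11 negative cells (2.51) with Olig2 at 0 in both classes. Microglial and endothelial markers had medians of 193 and 187 CPM and reached 2273.0 and 722.2 CPM. Markers of Vip, Lamp5 and Sncg cells summed to 927 and 223 CPM, of which Reln, also a gene of somatostatin cells, made the larger part, and Vip, Sncg and Adarb2 were at 0 in both.

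Immediate early and stress genes, which neurons switch on within minutes of activity or injury, had 2 calls among the 14 past the filter, Nr4a1 (2.35) and Atf3 (2.08), both higher, beside 3.18% of all genes. With day as a term these were at 1.68 and 0.99. All 14 had a difference above 0 (median 1.17), as had 53.2% of all genes. Summed over the 16 genes, positive cells had 2009.3 to 15706.9 CPM (median 7284.4) and negative cells 955 to 11906.3 CPM (median 4507.0). With day as a term 10 of 14 were above 0 (49.8% of all genes) and the median was 0.50, and the recording series gave medians of 1.84 and 0.40. In V1 the median of the list was −0.09. The classes overlapped widely, and the part of these genes in the other differences was not tested.

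The class of a cell was only weakly reflected in its overall profile. Each S1 L4 cell was matched with its 5 most correlated S1 L4 cells from other recording days, over the 1000 most variable genes without Hpse. Of these neighbours 58.8% had the same class, where 53.8% of the eligible cells did. For positive cells the shares were 67.8 and 65.2%, and for negative cells 40 and 30%. Matched with V1 L4 cells instead, positive S1 cells had 65.2% Hpse-positive neighbours (51.9% of those eligible) and negative S1 cells 56.4% (51.7%). Negative S1 cells thus had no larger share of Hpse-negative V1 neighbours than were on offer.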

How the data were processed

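Read counts per gene were obtained from the authors' deposited table, made by alignment to mm10 with STAR 2.4.2a, per the labels, without normalization. A second deposited table holds RPKM values that the authors computed with rpkmforgenes. Both hold 24490 gene entries (23998 symbols), and repeated symbols were summed. Counts were divided by each cell's total over all genes (CPM), 1 was added and log2 taken. The filter of at least 32 counts follows the study's variable gene selection, with 5 in place of its 10 cells. No test was made, because each area and layer is 1 sample.

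The members and the 24 gene lists (430 genes) were chosen with earlier results of these data known. Named genes are the 10 called genes with the largest difference each way, and the called and type-naming genes of the lists. Day as a term means a linear fit of class and recording day. Alternatives were a pseudocount of 10, filters of 10 cells or none, TMM library sizes (edgeR 4.0.16), thinning to 250000 reads, RPKM, an Hpse limit of 10 CPM, keeping cells without Sst, and leaving out each day. The scripts, in Python 3.11.15 with pandas 2.3.3 and SciPy 1.17.1, were tested on simulated data. No libraries held identical counts, and correlations between S1 L4 cells were 0.146 to 0.463. UMIs were not used, so reads are not independent molecules. Positions were taken from GENCODE M21 by symbol. Values of some genes are not reported here.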

Additional observations from a re-analysis of the deposited data

How the results depend on the processing

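The 20 named genes kept their direction under all 16 alternatives recomputed for each (315 of 320 values within 1 SD of the within-day differences). That direction was in part fixed by the choice of genes. The SD was a wide limit. It exceeded the difference itself for Kirrel3 (5.86 against −4.12), Pcdh8, Kcna3 and Fgfr1op, so for these a change to 0 would lie within it. With a pseudocount of 10, Hs3st1 fell from 4.40 to 2.59 and Kirrel3 from −4.12 to −2.46, both within 1 SD. The shares of genes called, 3.18% higher and 2.48% lower of 9003, moved more. A pseudocount of 10 left 0.133% higher and 0.156% lower (12 and 14 genes), all 26 among the 509, and 84.6% of them (22 of 26) had the same sign in V1 (main 60.7%). Thinning left 4598 genes past the filter, of which 4.85% were called higher and 2.41% lower. RPKM gave 1.43% higher and 1.01% lower, and recording day as a replicate block 3.89% lower. Days do not pair individual cells. Leaving out 1 recording day at a time gave 2.56 to 6.68% higher and 2.41 to 4.59% lower, 51.9 to 61.1% with the same sign in V1, and a median difference over all genes of −0.12 to 0.26. Days with both classes only, an alternative chosen after seeing the data, gave 5.3% higher and 4.65% lower and 55.1% with the same sign in V1. Summed levels without the cell with the most counts of the gene, also chosen after seeing the data, stand beside their values. The cause was not tested for any of these. The median difference and the share of same-class neighbours stayed within 1 SD over days (1.37 and 16.8 percentage points) under the other alternatives run. These limits are wide beside a median difference of 0.08 and a share of 58.8%, with 53.8% among eligible cells. Staying within them therefore says little about stability. With 11 Hpse-negative cells, 4 of them of 1 day, single cells weigh heavily, and a gene with no read in a cell may have been missed at these depths.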
